A study of Mus musculus with 2 samples.

Results

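The 8 genes described here are the early growth response factors Egr1, Egr2, Egr3 and Egr4, the orphan nuclear receptors Nr4a1, Nr4a2 and Nr4a3, and Nab2, a corepressor that binds Egr proteins. They were taken as a list of genes that T cells switch on after T cell antigen receptor (TCR) engagement, out of 31053 genes counted, and the question was which of them followed Egr1 between the libraries. The cells were sorted live CD45+EpCAM-MHC-II- cells from the ear epidermis of wild-type female FVB/NJ mice that were 8 weeks old. All mice had received an intradermal antibody 7 days before, an isotype control in 1 library and anti-Skint1 in the other, and in both the epidermis was released with warm trypsin. Skint1 is a butyrophilin-like protein of keratinocytes that selects the dendritic epidermal T cells (DETCs), the resident γδ T cells of mouse epidermis. With 1 library per treatment, the treatment and the library cannot be told apart, cells are not replicates, and no test was made. Each treatment had n = 1, where n counts mice. Every interval below is a 95% interval that covers counting error only. Intervals of levels and ratios take UMIs as independent, although UMIs of a gene can be gathered in few cells.

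EGR proteins are zinc finger activators that are made within minutes of ERK signalling downstream of the TCR. NR4A proteins are nuclear receptors without a known natural ligand, and they are induced by calcium and TCR signals, which is why reporters driven by Nr4a1 (Nur77) are used to read TCR signalling. EGR proteins switch on Nab2, whose product binds EGR proteins and represses their targets. DETCs carry an invariant γδ TCR and live among keratinocytes.

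Levels are unique molecular identifiers (UMIs) summed over the cells of a class and library and divided by all UMIs of those cells, per 1000000 UMIs (CPM). Of the 3 classes, DETCs (Trdc and CD3 transcripts, no Trac, Cd4 or Cd8) held 3544 of 4242 isotype cells and 4945 of 5961 anti-Skint1 cells, the αβ T class (Trac and no Trdv4) 197 and 213, and the class of innate lymphoid cells (ILCs; Il7r, Rora or Gata3 with little CD3) 82 and 139. Barcodes in both libraries numbered 5 of 10198. Median depth was 4027.5 UMIs for isotype DETCs and 3577 for anti-Skint1 DETCs. Defining markers fitted the DETC label: Trdv4, the invariant Vδ segment, was at 978 and 789 CPM in DETCs and 0 in the other classes by construction, and Tcrg-V5, which the rule did not use, was at 59.0 and 62.6 CPM in DETCs against at most 3.59 CPM in the other classes. The 8 keratinocyte markers summed to 35.5 and 48.6 CPM in DETCs. The αβ T class was less clean, as Trdc stood there at 299.7 CPM in the isotype and 546 CPM in the anti-Skint1 library, and 158 and 156 of its cells held no Trdc UMI. It shared 9 isotype and 14 anti-Skint1 cells with the ILC class, in which Cd3g stood at 212 and 147 CPM. Trbc1, a TCR β constant gene, does not part the classes, at 1491 and 1250 CPM in DETCs, 1115 and 935 CPM in αβ T cells and 1126 and 1069 CPM in the ILC class. The ILC name is only that of the rule. Without keratin-rich barcodes its 8 ILC markers summed to 1568 and 1730 CPM. Most of that is set by the rule, which selects on Il7r (768 and 798 CPM), Rora (464 and 503 CPM) and Gata3 (238 and 287 CPM). Outside the rule Kit was at 84.8 and 123 CPM and Klrb1b at 13.2 and 13.5 CPM, while Il1rl1, Ncr1 and Arg1 were at 0 in the isotype library. The 9 myeloid and Langerhans cell markers summed to 1325 and 2223 CPM, among them Cd207 (langerin) at 60.9 and 304 CPM. The part of those cells in the class's levels was not tested. The ILC class held barcodes rich in keratins, described with its values.

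In DETCs Egr1 was 1.31-fold higher in the anti-Skint1 library, and of the 7 other members only Egr2 showed a difference of that size and direction. Nr4a1, Egr3 and Egr4 differed little, and Nr4a3 and Nab2 were lower in the anti-Skint1 library. Within either library, however, groups of DETCs with more Egr1 had higher levels of the other Egr and the Nr4a members. Thus Egr3, Egr4 and the Nr4a members accompanied Egr1 between such groups but not from library to library, while Egr2 did both. Nab2 followed Egr1 in neither way, and its lower level was lost under some filters given with its values.

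The bases before an annotated start of 4 members are shown so that their regulatory letters can be set beside the values. Egr2 followed Egr1. Nr4a1 and Nr4a3 were higher in groups of cells with more Egr1 but did not share its difference, and Nab2 did neither. They are the 250 bases upstream of 1 RefSeq start of each gene on GRCm38.p6, written 5′ to 3′ on the gene's strand. Capitals mark matches on either strand to the core of the cAMP response element (CRE), TGACG, to the SRF CArG box, or to the EGR site GCGGGGGCG. Of the 5 RefSeq starts of Egr2, 3 had the same matches in overlapping windows and the first of them is shown. It was picked for having the most CRE core and CArG matches, unlike the windows behind the background shares below. The Egr2 window at 67537316-67537565 held a CArG box and no CRE core, and that at 67535249-67535498 held none of the motifs. The 4 starts shown all lie inside the annotated gene.
Egr2 (chr10:67537619-67537868, plus strand): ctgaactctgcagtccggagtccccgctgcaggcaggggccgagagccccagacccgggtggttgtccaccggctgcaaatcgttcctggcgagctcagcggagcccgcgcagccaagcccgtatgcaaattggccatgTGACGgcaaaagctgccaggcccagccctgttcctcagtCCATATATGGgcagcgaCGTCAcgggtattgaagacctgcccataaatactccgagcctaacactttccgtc
Nr4a1 (chr15:101266596-101266845, plus strand): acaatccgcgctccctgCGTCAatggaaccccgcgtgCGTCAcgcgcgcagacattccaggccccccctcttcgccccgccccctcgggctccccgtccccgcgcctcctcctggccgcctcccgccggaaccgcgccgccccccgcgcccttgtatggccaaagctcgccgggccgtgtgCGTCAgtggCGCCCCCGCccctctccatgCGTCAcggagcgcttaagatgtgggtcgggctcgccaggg
Nr4a3 (chr4:48045055-48045304, plus strand): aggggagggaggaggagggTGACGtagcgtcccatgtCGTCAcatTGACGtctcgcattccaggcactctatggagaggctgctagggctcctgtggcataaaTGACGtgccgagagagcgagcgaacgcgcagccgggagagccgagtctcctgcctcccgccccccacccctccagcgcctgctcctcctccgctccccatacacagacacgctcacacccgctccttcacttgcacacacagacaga
Nab2 (chr10:127666704-127666953, minus strand): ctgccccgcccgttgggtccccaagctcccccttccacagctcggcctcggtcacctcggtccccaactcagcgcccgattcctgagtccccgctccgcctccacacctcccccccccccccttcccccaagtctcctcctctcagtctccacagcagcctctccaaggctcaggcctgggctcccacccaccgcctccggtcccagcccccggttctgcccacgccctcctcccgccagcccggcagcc

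In these windows Nr4a1 and Nr4a3 each held 4 copies of the CRE core and Egr2 held 2 beside a CArG box, the site through which serum response factor drives immediate early genes. The windows of Nr4a2 and Egr4, not printed, held 4 and 2 copies of the CRE core. The window of Nab2 held none of the motifs searched. Over 32851 windows of the same length, 17.8% held the CRE core, 1.47% a CArG box and 2.57% GCGGGGGCG, of which Nr4a1 held 1 copy overlapping none of the others. The full CRE TGACGTCA (1.55% of windows), GCGTGGGCG (0.536%), the NR4A monomer site AAAGGTCA (1.34%) and the AP-1 site TGANTCA (6.75%) were in none of the members' windows. The CRE holds the CRE core on both strands. The table had windows for 6 of the 8 members. A match describes letters, not a used site.

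Egr1 is the most studied EGR factor and an immediate early gene of ERK signalling. Isotype DETCs held 4473 Egr1 UMIs, or 305 CPM (296 to 314), and anti-Skint1 DETCs 7459, or 399 CPM (389.7 to 408). The log2 ratio of anti-Skint1 over isotype was 0.39 (0.33 to 0.44). Among the 2859 genes with a mean of at least 50 CPM in DETCs it ranked 5 from the highest, beside a median gene at -0.03.

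Egr2 restrains T cells after TCR stimulation without costimulation and is needed in natural killer T cell development. It was at 16.0 CPM (14.0 to 18.1; 234 UMIs) in isotype DETCs and 21.5 CPM (19.4 to 23.7; 402 UMIs) in anti-Skint1 DETCs, a log2 ratio of 0.43 (0.19 to 0.67). Its ratio exceeded that of Egr1 by 0.04 (-0.20 to 0.28), an interval that holds 0. Egr2 thus followed Egr1 within counting error, at a level below the 50 CPM set for counting members. Egr3, which overlaps with Egr2 in function, was at 30.8 CPM (28.1 to 33.8) and 28.8 CPM (26.4 to 31.4), with a log2 ratio of -0.10 (-0.28 to 0.09). Egr4 was at 33.3 CPM (30.4 to 36.4) and 32.8 CPM (30.3 to 35.5), a log2 ratio of -0.02. The ratios of Egr3 and Egr4 lay below that of Egr1 by more than counting error, with differences of -0.48 (-0.67 to -0.30) and -0.41 (-0.59 to -0.23).

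The 3 Nr4a genes did not follow. Nr4a1 was at 232 CPM (224 to 240; 3400 UMIs) in isotype DETCs and 226 CPM (219.6 to 233; 4235 UMIs) in anti-Skint1 DETCs, a log2 ratio of -0.03 (-0.10 to 0.03). Nr4a2 was at 206 CPM (199 to 214) and 190.3 CPM (184 to 197), a log2 ratio of -0.12 (-0.19 to -0.05) that held 0 in cells with under 3 heat shock UMIs (-0.051, -0.20 to 0.10) or under 20 (-0.059, -0.14 to 0.03). Nr4a3 had the lowest ratio of the 3, with 79.3 CPM (74.8 to 84.0; 1163 UMIs) and 62.5 CPM (59.0 to 66.2; 1169 UMIs), and its log2 ratio of -0.34 (-0.46 to -0.23) was matched or passed downward by 1.29% of the 2859 genes. Set against Egr1, the ratios were lower by more than counting error, at -0.42 (-0.51 to -0.34) for Nr4a1, -0.50 (-0.59 to -0.42) for Nr4a2 and -0.73 (-0.86 to -0.60) for Nr4a3.

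Nab2 was lower in the anti-Skint1 library over all DETCs, opposite to Egr1. It was at 22.5 CPM (20.1 to 25.1; 330 UMIs) in isotype DETCs and 17.9 CPM (16.0 to 19.9; 334 UMIs) in anti-Skint1 DETCs, a log2 ratio of -0.33 (-0.56 to -0.11). Its interval held 0 in cells with at most 5% mitochondrial UMIs (-0.018, -0.41 to 0.38) and in cells with under 3 heat shock UMIs (-0.071, -0.48 to 0.34). Both intervals, from fewer cells, also hold the Nab2 value of -0.33. Its paralogue Nab1, which is no member, was at 38.5 CPM and 32.4 CPM, a log2 ratio of -0.25 (-0.41 to -0.08). Nab2 overlaps Stat6, Gm16229 and Nemp1 on the opposite strand.

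A member was counted as following Egr1 when its log2 ratio was at least 0.2, or 1.15-fold, in the same direction. Of the 4 members at 50 CPM or more, Egr1 was past that size upward, Nr4a3 downward, and 2 were past it in neither direction, so that 0 of the 3 others followed. Of all 2859 genes at that level, 1.78% were past the fold upward and 6.44% downward. All 8 members reached 10 CPM, where 1 of the 7 others, Egr2, followed and 2, Nr4a3 and Nab2, were past the fold downward, beside 5.01% of 7549 genes upward and 10.2% downward.

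**Figure D1:**
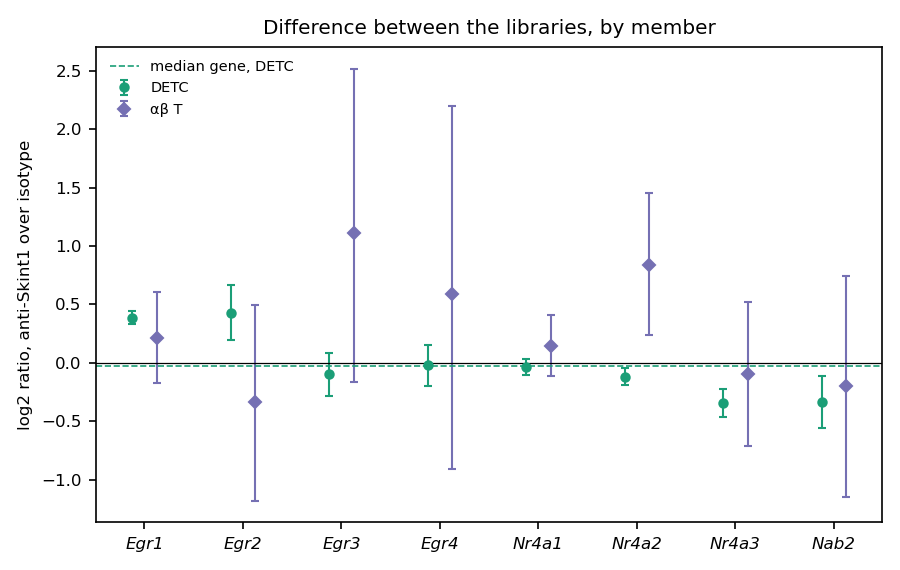
Log2 ratio of anti-Skint1 over isotype (y axis) for each member (x axis) in DETCs (circles) and αβ T cells (diamonds), with 95% counting intervals; the dashed line is the median gene in DETCs. In DETCs Egr1 and Egr2 lie above 0 at 0.39 and 0.43, and Nr4a3 and Nab2 below it at -0.34 and -0.33.

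In the anti-Skint1 library both the share of DETCs with an Egr1 UMI and the mean UMIs per such cell were higher. A higher level in every cell can raise both, so these values do not tell more cells from more UMIs per cell. To compare cells of different depth, each DETC was thinned to 2000 UMIs, which left out 134 isotype and 202 anti-Skint1 cells. At least 1 Egr1 UMI was then held by 30.4% (28.9 to 32.0, exact binomial) of 3410 isotype DETCs and 37.3% (35.9 to 38.7) of 4743 anti-Skint1 DETCs, a difference of 6.82 percentage points (4.74 to 8.87, Newcombe). Without thinning the shares were 41.2% and 46.6%. At least 3 UMIs were held by 7.80% and 11.8%, and at least 5 UMIs by 2.02% and 3.75%. The mean over cells with any Egr1 was 2.02 UMIs in the isotype and 2.27 UMIs in the anti-Skint1 library. As a class with little CD3, ILCs without keratin-rich barcodes, thinned in the same way, held an Egr1 UMI in 3.95% of 76 isotype and 7.03% of 128 anti-Skint1 cells, at median depths of 4557 and 4268 UMIs.

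Shares of the other members are given by value only, as share differences were not counted over all genes. Nr4a1 was found in 29.9% of isotype and 28.3% of anti-Skint1 DETCs thinned to 2000 UMIs, a difference of -1.66 points (-3.67 to 0.33). The shares with Nr4a3 were 13.0% and 11.1%, a difference of -1.88 points (-3.33 to -0.45), and those with Nab2 4.66% and 3.52%, a difference of -1.14 points (-2.05 to -0.28). The Nab2 difference held 0 with cells thinned to 1000 (-0.31, -0.95 to 0.30) or 3000 UMIs (-0.79, -1.96 to 0.34). Egr2 was found in 2.87% and 3.63%, a difference of 0.75 points (-0.04 to 1.52) whose interval holds 0, and at 3000 UMIs of 1.00 points (0.02 to 1.97). At 1000 UMIs the Egr2 difference was 0.23 points (-0.34 to 0.77) and without thinning 0.70 points (-0.24 to 1.61), intervals that hold 0. Egr4 was gathered in few cells: its 488 isotype UMIs lay in 201 of 3544 DETCs, and its 614 anti-Skint1 UMIs in 248 of 4945. In the ILC class without keratin-rich barcodes the thinned shares for Egr2 were 7.89% and 9.38%, above those of DETCs.

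**Figure D2:**
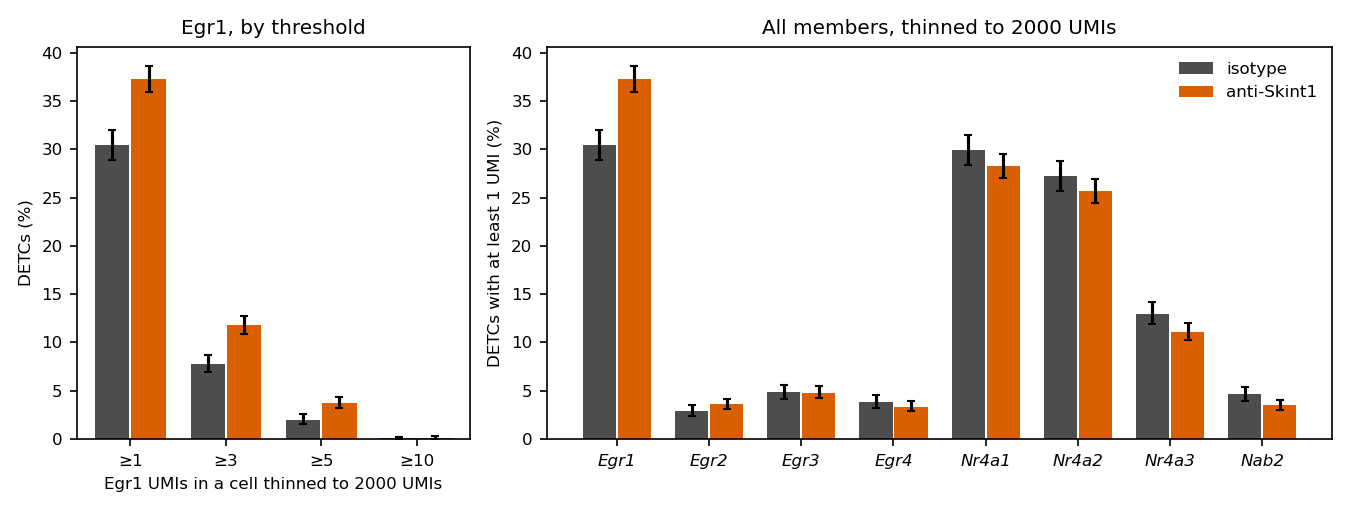
Percent of DETCs thinned to 2000 UMIs (y axes) that held at least 1, 3, 5 or 10 Egr1 UMIs (left) or at least 1 UMI of each member (right) in the isotype and anti-Skint1 libraries, with exact 95% binomial intervals. The bars of Egr1 are higher in the anti-Skint1 library at 1, 3 and 5 UMIs (37.3% against 30.4% at 1), and those of Nr4a3 and Nab2 are lower.

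Within each library, DETCs with more Egr1 also held more of 6 of the 7 other members. Thinned DETCs were grouped by 0, 1 to 2 and at least 3 Egr1 UMIs, which gave 2372, 772 and 266 isotype cells and 2976, 1206 and 561 anti-Skint1 cells. Over these groups Nr4a1 stood at 173, 341 and 521 CPM in isotype DETCs and 135, 333 and 524 CPM in anti-Skint1 DETCs. Egr2 had the highest ratio between the outer groups in both libraries, from 9.06 to 65.8 CPM in the isotype library and from 10.6 to 71.3 CPM in the anti-Skint1 library, log2 ratios of 2.86 (2.17 to 3.54) and 2.75 (2.26 to 3.25). Between the same groups the log2 ratios were 2.14 and 2.47 for Egr3, 1.13 and 2.45 for Egr4, 1.59 and 1.96 for Nr4a1, 1.29 and 1.66 for Nr4a2, and 1.30 and 1.74 for Nr4a3, all with intervals above 0. The median gene had -0.10 and -0.12. These are levels of groups, as not every cell with at least 3 Egr1 UMIs held each member. Of those cells 51.9% and 55.8% held an Nr4a1 UMI, but only 4.89% and 6.95% an Egr4 UMI. A ratio of at least 0.2 with an interval above 0 in both libraries was held by 4.89% of 7548 genes at 10 CPM or more, and by 9.73% of the 2858 genes at 50 CPM or more, where all 3 Nr4a genes held it. Nab2 was the exception, at -0.71 (-1.87 to 0.26) and 0.18 (-0.52 to 0.83), and Nab1 had 0.26 (-0.42 to 0.88) and -0.55 (-1.19 to 0.03).

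Between the libraries, the Nr4a ratios were lowest in the cells without an Egr1 UMI. In that group Nr4a1 was at 173 CPM in the isotype and 135 CPM in the anti-Skint1 library, a log2 ratio of -0.36 (-0.50 to -0.21). Nr4a2 had -0.45 (-0.60 to -0.31), Nr4a3 -0.66 (-0.90 to -0.41) and Egr4 -0.78 (-1.18 to -0.38). Egr3 had -0.47 (-0.91 to -0.03) and Nab2 -0.55 (-0.93 to -0.18), while Egr2 had 0.22 (-0.36 to 0.82). With at least 3 Egr1 UMIs the ratios were 0.01 (-0.20 to 0.22) for Nr4a1, -0.08 (-0.32 to 0.16) for Nr4a2 and -0.21 (-0.60 to 0.18) for Nr4a3. Egr4 had 0.54 (-0.06 to 1.17) there, Egr2 0.12, Egr3 -0.14 and Nab2 0.34, all with intervals that hold 0. Fos, the AP-1 subunit, also had a ratio of -0.27 (-0.31 to -0.24) in the cells without Egr1, while Ier2 had 0.02 (-0.07 to 0.11) there. Hspa1a ran the other way, with -0.50, -0.64 and -0.80 from the cells without Egr1 to those with at least 3 UMIs. The group without an Egr1 UMI was itself a smaller share of the anti-Skint1 cells, and the part of that in these ratios was not tested.

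**Figure D3:**
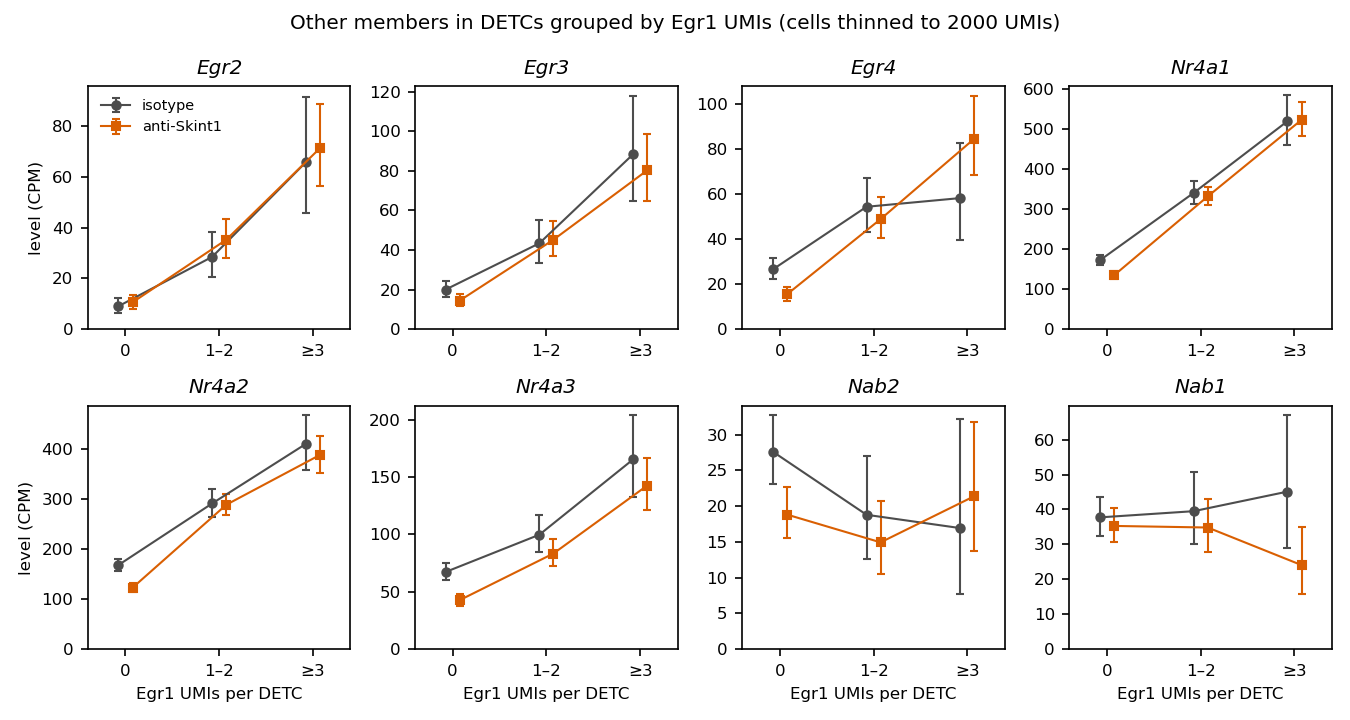
Level in CPM (y axes, each panel with its own scale from 0) of the other members and Nab1 in DETCs with 0, 1 to 2 or at least 3 Egr1 UMIs after thinning to 2000 UMIs (x axes), in the isotype (circles) and anti-Skint1 (squares) libraries, with exact 95% Poisson intervals. All but Nab2 and Nab1 climb with Egr1 in both libraries; Nr4a1 climbs from 173 to 521 CPM in the isotype library.

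Correlations with Egr1 over single DETCs were highest for Nr4a1 among the members. Pearson's r of log(1 + UMIs), over 3410 isotype and 4743 anti-Skint1 cells that share a library and were thinned to equal depth, was 0.25 and 0.32 for Nr4a1, 0.18 and 0.26 for Nr4a2, 0.14 and 0.16 for Egr2, 0.14 and 0.16 for Egr3, 0.13 and 0.18 for Nr4a3, 0.06 and 0.12 for Egr4, and -0.04 and -0.01 for Nab2. The counts were sparse, and the part of that in these values was not tested. Of 2858 genes at 50 CPM or more, the 10 most like Egr1 by the lower of both values included Fos (0.39 and 0.48), Btg2, Ier2, Fosb, Rgs2, Dnajb1, Jun, Junb and Btg1, and Nr4a1 ranked 15. Of those 10 genes, Ier2, an immediate early gene, was past the fold upward between the libraries, from 509 to 622 CPM (log2 ratio 0.29, 0.25 to 0.33), and Rgs2, Dnajb1 and Jun were past it downward. Fos, the gene most like Egr1, was at 3766 CPM in isotype and 3699 CPM in anti-Skint1 DETCs, a log2 ratio of -0.03.

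The Egr1 ratio depended on the depth of the cell. It was 0.57 (0.42 to 0.73) in DETCs with under 3000 UMIs, 0.48 (0.39 to 0.58) from 3000 to below 4000, 0.27 (0.19 to 0.35) from 4000 to below 6000 and -0.03 (-0.20 to 0.14) in the 323 isotype and 328 anti-Skint1 cells with 6000 or more. Nr4a3 was lower in the anti-Skint1 library in all 4 groups, with ratios of -0.43, -0.11, -0.32 and -0.97, of which the second (-0.33 to 0.11) has an interval that holds 0. Nr4a1 had 0.10, 0.06, -0.19 and -0.07, of which only the third (-0.30 to -0.09) has an interval that leaves out 0. Egr2 had 0.35, 0.86, 0.23 and 0.31, and only the second (0.40 to 1.34) leaves out 0. Cells above the gene limit of 2500, not among the DETCs above, had an Egr1 ratio of 0.15 (0.01 to 0.29), and dividing DETCs, of which there were 95 and 89, one of -0.24 (-0.67 to 0.20).

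At a like level of Fos, Egr1 still differed. DETCs thinned to 2000 UMIs with 10 or more Fos UMIs were 32.1% of isotype and 32.4% of anti-Skint1 cells, and there Egr1 was at 603 and 843 CPM, a log2 ratio of 0.48 (0.39 to 0.58). With 5 to 9 Fos UMIs the ratio was 0.66 (0.48 to 0.85), with 2 to 4 it was 0.26 (0.04 to 0.49), and with 0 to 1 it was 0.11 (-0.20 to 0.42), where Egr1 was at only 73.1 and 78.8 CPM. Egr2 had 0.63 (0.22 to 1.05) in the cells with 10 or more Fos UMIs, from 32.9 to 50.8 CPM. Nr4a1 in those cells had 0.10 (-0.03 to 0.22) and Nr4a3 -0.34 (-0.56 to -0.11). In the other 3 Fos groups the interval of Egr2 held 0.

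**Figure D4:**
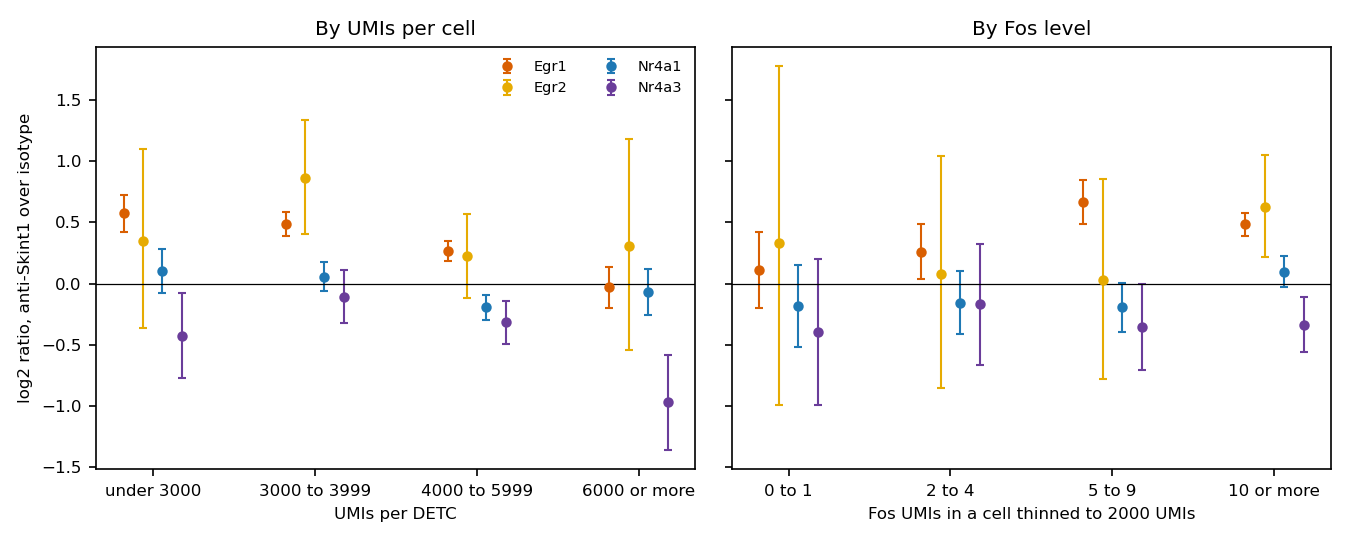
Log2 ratio of anti-Skint1 over isotype (y axis) of Egr1, Egr2, Nr4a1 and Nr4a3 in DETCs grouped by UMIs per cell (left) and by Fos UMIs after thinning to 2000 UMIs (right), with 95% counting intervals. The Egr1 ratio runs from 0.57 in the shallowest to -0.03 in the deepest cells. By Fos it is 0.11, 0.26, 0.66 and 0.48 in cells with 0 to 1, 2 to 4, 5 to 9 and 10 or more Fos UMIs.

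Other genes of the response, are given in lists chosen with earlier results of these data known, beside 1.78% of all genes past the fold upward and 6.44% downward, so that few upward calls set no list apart. Of the AP-1 genes at 50 CPM or more, 0 of 8 were past the fold upward and 2 downward (median log2 ratio -0.13, beside -0.03 over all genes), from Atf3 at -0.55 and Jun at -0.24 to Junb at 0.02 and Jund at 0.03. Of the other immediate early genes 2 of 16 were past it upward, Ier2 and Ier3 (0.29 and 0.20), and 3 downward, among them Rgs2 (-0.30) and Rgs1 (-0.29), which limit G protein signalling, with a median of -0.04. Of the TCR and NFAT response genes 0 of 8 were past it upward and 2 downward, the chemokine gene Xcl1 (-1.72) and Tnfrsf9 (-0.97), which encodes 4-1BB, while Tnf had 0.07 and Tox -0.06 (median -0.09). Of 4 Egr targets and brakes, 0 were past it upward and 1 downward, the NF-κB subunit Rel (-0.38), with Itch at -0.13, Dusp5 at -0.12 and Spry2 at -0.06 (median -0.13). Of the heat shock genes, markers of cell stress, 8 of 9 were past the fold downward (median -0.31), from Hsph1 (-0.83) and Hspa1a (-0.57) to Hspa8 (-0.21) and Hsp90ab1 (-0.15), and their part in the members' levels was not tested. In DETCs with under 20 UMIs of the 4 inducible heat shock genes, a cutoff chosen after seeing the data that kept 69.9% of isotype and 81.4% of anti-Skint1 cells, the Egr1 ratio was 0.54 (0.47 to 0.61) and that of Egr2 0.73 (0.42 to 1.05). With under 3 such UMIs, which kept 28.1% and 32.7%, the ratios were 0.58 (0.46 to 0.71) and 0.46 (-0.11 to 1.06), the latter an interval that holds 0.

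Across cell classes, Egr1 and Nr4a2 were most abundant in DETCs. Egr1 was at 129 CPM (105 to 156) in isotype and 149 CPM (124 to 178) in anti-Skint1 αβ T cells, and at 21.2 CPM (9.15 to 41.8) and 50.6 CPM (34.1 to 72.2) in ILCs without keratin-rich barcodes, with intervals apart at each step. In αβ T cells without a Trdc UMI, a set chosen after seeing the data, Egr1 was at 77.2 and 31.8 CPM, which in the anti-Skint1 library is below the ILC level. From DETCs over αβ T cells to ILCs, Nr4a2 had isotype levels of 206, 46.2 and 13.2 CPM and anti-Skint1 levels of 190.3, 82.5 and 28.7 CPM. Nr4a1 was highest in αβ T cells, at 286 and 317 CPM, a log2 ratio of DETCs over αβ T cells of -0.30 (-0.50 to -0.10) in the isotype and -0.48 (-0.66 to -0.30) in the anti-Skint1 library, and its ILC level of 194 CPM in the anti-Skint1 library did not differ from that of DETCs beyond counting error (0.22, -0.04 to 0.50). Nr4a1 was at 250.5 and 303 CPM in αβ T cells without a Trdc UMI. The lowest Egr2 levels were those of DETCs, beside ILC levels of 53.0 and 50.6 CPM and αβ T levels of 36.2 and 28.7 CPM. Its DETC level lay below that of ILCs by more than counting error in both libraries (log2 ratios -1.73 and -1.24), and below that of αβ T cells only in the isotype library (-1.18, -1.74 to -0.57, against -0.42, -1.01 to 0.24).

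Nr4a3 was at 58.7 and 55.0 CPM in αβ T cells, next to DETCs, and at 23.8 and 33.7 CPM in ILCs. Egr4 was higher in DETCs than in αβ T cells, which had 8.74 and 13.2 CPM, and held 0 UMIs among 377440 in isotype ILCs. Egr3 was higher in DETCs than in αβ T cells in the isotype library (log2 ratio 1.63, 0.63 to 2.85) but not by more than counting error in the anti-Skint1 library (0.42, -0.25 to 1.19). Nab2 levels did not separate the classes beyond counting error in either library.

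**Figure D5:**
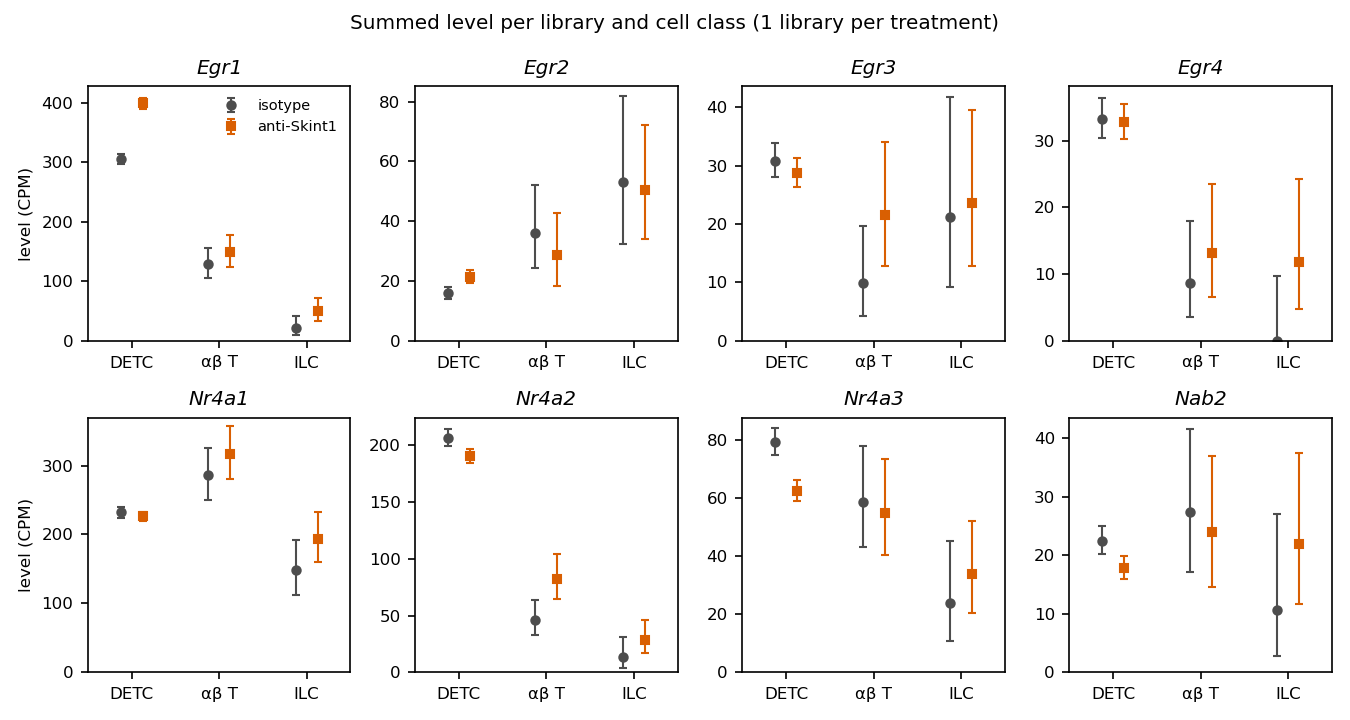
Summed level in CPM (y axes, each panel with its own scale from 0) of each member in DETCs, αβ T cells and ILCs without keratin-rich barcodes (x axes), in the isotype (circles) and anti-Skint1 (squares) libraries, with exact 95% Poisson intervals. Egr1 and Nr4a2 are highest in DETCs, Nr4a1 in αβ T cells, and the lowest Egr2 values are those of DETCs.

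In αβ T cells the Egr1 ratio was 0.22 (-0.17 to 0.61), which differed from that in DETCs by 0.17 (-0.21 to 0.55), an interval that holds 0. These cells held only 103 and 125 Egr1 UMIs, so that neither a like ratio nor none could be told at this depth. In αβ T cells without a Trdc UMI the sign turned, with 49 and 19 Egr1 UMIs and a log2 ratio of -1.28 (-2.13 to -0.49). Nr4a2 differed most clearly from its DETC ratio: it was 46.2 CPM (37 UMIs) in isotype and 82.5 CPM (69 UMIs) in anti-Skint1 αβ T cells, a log2 ratio of 0.84 (0.24 to 1.45), and the DETC ratio was lower by 0.95 (-1.53 to -0.37). Trdc, the DETC marker, was also higher in this class in the anti-Skint1 library (546 against 299.7 CPM), and without cells with a Trdc UMI Nr4a2 had 17 and 24 UMIs and a ratio of 0.58 (-0.37 to 1.57), which holds 0. The other αβ T ratios had intervals that hold 0, among them 0.15 (-0.11 to 0.41) for Nr4a1. An interval above 0 was thus held by 1 of the 8 members, beside 3.38% of 7215 genes at a mean of 10 CPM or more in the class, and without cells with a Trdc UMI by 0 of the 7 members at that level, beside 3.29% of 7050 genes.

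In the ILC class as defined, Egr1 held 8 UMIs (20.9 CPM) in the isotype and 102 UMIs (155 CPM) in the anti-Skint1 library, a log2 ratio of 2.89 (1.86 to 4.14), but keratin-rich barcodes carried most of it. In the anti-Skint1 library 8 of the 139 barcodes held at least 10 UMIs of Krt5 and Krt14, and 72 of the 102 Egr1 UMIs were theirs, at 1083 CPM. In them Ptprc, which encodes CD45, and Trdc, Cd3e and Il7r were at 0, and the 8 keratinocyte markers summed to 38065 CPM. The isotype library had 1 such barcode among 82, with no Egr1 UMI. Without them the log2 ratio was 1.26 (0.10 to 2.59), from 8 to 30 Egr1 UMIs, and without Trac-bearing barcodes too it was 2.15 (0.63 to 4.12), from 4 to 28 UMIs. Those 131 anti-Skint1 barcodes still held 730 CPM of keratinocyte markers against 26.5 CPM in the 81 isotype barcodes and myeloid markers at 2223 against 1325 CPM, whose part in the Egr1 ratio was not tested. Nr4a1 had 0.51 (0.05 to 0.98) in the class as defined, 0.39 (-0.09 to 0.87) without keratin-rich barcodes and 0.55 (0.03 to 1.08) without Trac-bearing ones too. Egr2 had -0.07 (-0.93 to 0.83) without keratin-rich barcodes.

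Members in free RNA were read from barcodes of 1 to 100 UMIs. Egr1 was at 226 CPM there in the isotype library and 328 CPM in the anti-Skint1 library, below its DETC level in each. Keratin genes placed free RNA at 1.79% and 2.14% of DETC UMIs, and with that share subtracted the DETC ratio of Egr1 was 0.38. Nr4a3 was at 16.7 and 21.1 CPM in free RNA, well below its DETC levels, while Nab2 was there at 22.3 and 21.4 CPM, about its DETC levels. Between the libraries, 4 of the 8 members had a free RNA ratio of at least 0.2 with an interval above 0, beside 8.79% of 7887 genes at 10 CPM or more there. Egr2 was at 22.0 and 23.8 CPM in free RNA, above its DETC levels of 16.0 and 21.5 CPM, with a log2 ratio of 0.11 (-0.36 to 0.58) between the libraries. With the free RNA share subtracted, the DETC ratio of Egr2 was 0.44.

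On GRCm38, the genes lie at chr18:34859823-34864984 (plus strand, Egr1), chr10:67535475-67542188 (plus, Egr2), chr14:70077203-70082614 (plus, Egr3), chr6:85511121-85513589 (minus, Egr4), chr15:101254269-101274795 (plus, Nr4a1), chr2:57106830-57124003 (minus, Nr4a2), chr4:48045153-48086447 (plus, Nr4a3) and chr10:127660918-127668568 (minus, Nab2). No other counted gene overlaps any of them on the same strand.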

How the data were processed

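Per the labels and file headers, the authors sorted live CD45+EpCAM-MHC-II- epidermal cells, made 1 library per treatment with a 10x Genomics 3′ v3 kit, and counted UMIs per barcode and gene with Cell Ranger 3.0.2 on mm10 (GRCm38). The deposited counts were raw and unfiltered, 27272211 UMIs in the isotype and 32450957 in the anti-Skint1 library. The study's cell filter was applied, with 500 and 2500 as the lowest and highest number of genes and 12% as the highest mitochondrial share. Cells were classed by the transcripts given in the text, a rebuilt class and not the study's clusters. Levels carry exact Poisson intervals, ratios exact conditional binomial intervals, differences of ratios normal intervals, and shares exact binomial intervals at 95%. They cover counting error only, and those of levels and ratios were not tested on UMIs gathered in few cells. Thinning drew each cell to 2000 UMIs without replacement. No doublet call was used for the main values, as Scrublet's own threshold marked 1 and 0 barcodes; the alternative left out the 114 and 209 DETCs marked by rate. Positions came from GENCODE vM21, promoter windows from RefSeq. Members, gene lists and classes were chosen with earlier results of these data known. Named genes were all members, Nab1, the 10 genes most like Egr1 (1 of them is not reported here), and the 2 highest and 2 lowest of each list at 50 CPM or more. The myeloid and Langerhans markers summed to 18.2 and 15.9 CPM in DETCs, and no keratinocyte or myeloid marker reached 50 CPM there. Alternatives changed filters, class rules, scaling, thinning and free RNA. Python 3.11.15, numpy 2.4.6, scipy 1.17.1 and scanpy 1.11.5 were used.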

Additional observations from a re-analysis of the deposited data

Results flagged for a closer look

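Nr4a2 had opposite signs in 2 classes of the same libraries: its log2 ratio of anti-Skint1 over isotype was 0.84 (0.24 to 1.45, counting error only) in αβ T cells and -0.12 (-0.19 to -0.05) in DETCs, where it held 0 in cells with under 3 heat shock UMIs (-0.051, -0.20 to 0.10), with 1 library per treatment, so that the difference was not tested. Trdc in the αβ T class was at 299.7 CPM in the isotype and 546 CPM in the anti-Skint1 library, and without cells with a Trdc UMI the αβ T ratio of Nr4a2 was 0.58 (-0.37 to 1.57).

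In barcodes of 1 to 100 UMIs, which the comparisons of cells do not use, 4 members were higher in the anti-Skint1 library than in the isotype control by more than counting error, beside 8.79% of 7887 genes there. Their log2 ratios were 0.54 (0.40 to 0.67) for Egr1, 0.46 (0.03 to 0.90) for Egr3, 0.51 (0.10 to 0.93) for Egr4 and 0.29 (0.12 to 0.46) for Nr4a1. Keratin transcripts in the same barcodes were at 937 CPM in the isotype and 1329 CPM in the anti-Skint1 library, and keratin-rich barcodes of the ILC class held Egr1 at 1083 CPM; their part in these ratios was not tested. In DETCs Egr1 had 0.39, and Egr3, Egr4 and Nr4a1 had -0.10, -0.02 and -0.03.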

How the results depend on the processing

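Over 14 alternatives for the whole DETC class the Egr1 log2 ratio ran from 0.29 to 0.58, positive in all 14 and inside the counting interval of the reported value in 10. It left that interval at 0.29 with at most 5% mitochondrial UMIs (35.7% and 30.4% of the DETCs), 0.45 with cells thinned to 2000 UMIs, 0.58 without cells with 3 or more heat shock UMIs (28.1% and 32.7% left) and 0.54 without those with 20 or more. In groups of cells by depth, chosen after seeing the data like the groups by Fos, it was 0.57, 0.48 and 0.27 from the shallowest up, and -0.032, a reversed sign, in the deepest, and by Fos 0.11, 0.26, 0.66 and 0.48; the cause was not tested. The number of members that follow Egr1 stayed 0 of 3 except that it was 1 of 7, Egr2, at 10 CPM or with no filter on low genes, because more members were counted. Of 98 values for the 7 other members 92 stayed inside their counting intervals and 6 did not, and 8 changed sign, all of Egr3, Egr4 or Nr4a1, whose reported values are near 0; Nab2 was -0.02 with at most 5% mitochondrial UMIs and -0.07 without cells with 3 or more heat shock UMIs. In αβ T cells the Egr1 ratio reversed to -0.19 (-0.84 to 0.45) with at most 5% mitochondrial UMIs and to -1.28 (-2.13 to -0.49) without cells with a Trdc UMI, the latter chosen after seeing the data. In ILCs it was 4.21 with that limit and 1.26 without keratin-rich barcodes, an alternative chosen after seeing the data. The Egr1 share difference was 4.99 to 5.35 points over 3 other depths. The Egr1 groups and the likeness to Egr1 were run with 1 setting. No paired analysis was possible because each treatment has 1 library. Members under 50 CPM rest on 234 to 614 UMIs per library in DETCs.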

Other observations

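In αβ T cells, 4 of the 9 AP-1 genes detected there had log2 ratios of anti-Skint1 over isotype with intervals above 0, a pattern chosen after its values were seen, beside 3.38% of the 7215 genes at a mean of 10 CPM or more in this class. Fos had 0.64 (0.53 to 0.75, counting error only), Jun 0.58 (0.33 to 0.83), Fosb 0.45 (0.09 to 0.81) and Maff 1.77 (0.52 to 3.23), beside -0.03, -0.24, -0.20 and -0.10 in DETCs. The intervals of the other 5 held 0, with Atf3 at 0.20, Jund at 0.01, Junb at 0.00, Fosl2 at -0.27 and Batf at -0.43. Trdc, which the αβ T rule did not bar, was at 299.7 and 546 CPM in this class. In αβ T cells without a Trdc UMI, Fos (0.48, 0.33 to 0.63) and Fosb (0.75, 0.29 to 1.21) kept intervals above 0, while those of Jun (0.13, -0.21 to 0.47) and Maff (1.31, -0.82 to 3.89) held 0, beside 3.29% of 7050 genes with intervals above 0. The difference between the classes was not tested, and 158 and 156 cells stand behind these values.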
